A study of Mus musculus with 6 samples.

Results

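The Gimap cluster is a run of 8 neighbouring protein-coding genes on mouse chromosome 6 (Gimap8, Gimap9, Gimap4, Gimap6, Gimap7, Gimap1, Gimap5 and Gimap3 in chromosome order), out of 21951 protein-coding genes examined. The window studied ran from 20000 bp before the first gene to 20000 bp after the last, chr6:48627234-48790851 in mm10 (GRCm38), a width of 163618 bp. Every ATAC-seq peak that overlapped this window in any library was taken, with no selection on its strength. Peaks that overlapped or touched across libraries were joined into regions, which gave 28 regions in the window of 236017 in the genome. The 28 regions are numbered below from 1 to 28 along the chromosome. The window also overlaps the protein-coding gene AI854703 at its left end, the processed pseudogene Gm44262, the antisense transcript Gimap1os, and Gm28053, a protein-coding annotation whose exons run from the start of Gimap7 into Gimap5.

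The study compared open chromatin in T helper subsets. In ATAC-seq Tn5 transposase inserts tags into accessible chromatin, and stretches with many tagged fragments are called as peaks. Naive CD4 T cells from spleens of C57BL/6J mice were cultured for 5 days, and each of the 3 resulting subsets had 2 libraries, labelled replicates 1 and 3. All cultures were activated with antibodies to CD3 and CD28. Th9 cells received IL-4, IL-2, TGF-β1 and an antibody to IFN-γ. Th2 cells received IL-4, IL-2 and the same antibody. Th17 cells received IL-6, IL-23, IL-1β and TGF-β1, with antibodies to IFN-γ, IL-4 and IL-2. The cells were wild type. The labels do not tie the libraries to animals or cultures, so the tests below measure the spread between these 6 libraries, which may be partly technical.

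GIMAP proteins (GTPases of the immunity-associated protein family) bind GTP or GDP through a shared AIG1-type domain. Several of them sit on intracellular membranes such as those of mitochondria, lysosomes or the endoplasmic reticulum. They are expressed mainly in lymphocytes and other blood cells and are best known for keeping resting T and B cells alive. Loss of Gimap5 in rats and mice depletes peripheral T cells, Gimap1 is required for mature lymphocytes, and Gimap4 has been linked to the execution of T cell death. The genes lie close together as a product of tandem duplication, so their control regions are interleaved.

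The 7 stretches of DNA below carry the patterns described here and are written 5′ to 3′ on the plus strand of GRCm38. The first 3 are RefSeq-based promoters, given as the bases that precede the annotated exons: Gimap4, whose start was called in Th9 and Th2 but not in Th17, Gimap5, whose promoter ranked lower in Th17, and Gimap7, the highest-ranked promoter of the cluster in Th9 and Th17. The element between Gimap7 and Gimap1 had the highest percentile of the window in every library. The element in Gimap1 had the smallest adjusted p of the window in the test of normal scores described below, and its first bases belong to a coding exon of Gimap1. The elements in the Gimap8 intron and beyond Gimap3 were called in Th9 and Th2 only. Capitals mark matches on either strand to the short motifs searched, which stand for families of transcription factors. They were TGANTCA for AP-1, the Fos and Jun family, with AGATAA for GATA factors and TTCNNNGAA for the STAT proteins that cytokine receptors activate. The others were TGTGGT for the RUNX family, CCGGAA for ETS factors, TGTTTAC for forkhead (FOX) factors, CTTTGA for TCF/LEF factors, AGGTCA for the nuclear receptor ROR and CACCC for Krüppel-like (KLF) factors.
Gimap4 promoter (chr6:48684328-48684548): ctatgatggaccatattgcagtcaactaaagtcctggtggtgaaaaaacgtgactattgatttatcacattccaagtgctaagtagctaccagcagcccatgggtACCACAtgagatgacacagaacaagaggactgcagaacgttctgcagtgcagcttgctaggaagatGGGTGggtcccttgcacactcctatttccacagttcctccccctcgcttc
Gimap5 promoter (chr6:48745947-48746196): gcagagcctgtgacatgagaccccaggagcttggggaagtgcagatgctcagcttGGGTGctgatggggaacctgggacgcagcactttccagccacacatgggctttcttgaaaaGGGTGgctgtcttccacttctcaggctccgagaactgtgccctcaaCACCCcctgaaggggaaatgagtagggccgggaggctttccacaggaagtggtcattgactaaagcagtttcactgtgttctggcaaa
Gimap7 promoter (chr6:48718371-48718606): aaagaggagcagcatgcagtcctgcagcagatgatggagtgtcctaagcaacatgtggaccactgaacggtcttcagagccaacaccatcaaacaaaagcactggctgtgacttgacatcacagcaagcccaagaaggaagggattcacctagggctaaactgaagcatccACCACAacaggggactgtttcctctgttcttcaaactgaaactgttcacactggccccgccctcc
element between Gimap7 and Gimap1 (chr6:48732946-48733245): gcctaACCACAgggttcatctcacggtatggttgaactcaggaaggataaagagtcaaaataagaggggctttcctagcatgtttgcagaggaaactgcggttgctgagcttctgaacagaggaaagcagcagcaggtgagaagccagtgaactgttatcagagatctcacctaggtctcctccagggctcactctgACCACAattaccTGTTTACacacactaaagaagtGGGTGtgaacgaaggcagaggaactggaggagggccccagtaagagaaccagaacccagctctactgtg
element in Gimap1 (chr6:48741375-48741672): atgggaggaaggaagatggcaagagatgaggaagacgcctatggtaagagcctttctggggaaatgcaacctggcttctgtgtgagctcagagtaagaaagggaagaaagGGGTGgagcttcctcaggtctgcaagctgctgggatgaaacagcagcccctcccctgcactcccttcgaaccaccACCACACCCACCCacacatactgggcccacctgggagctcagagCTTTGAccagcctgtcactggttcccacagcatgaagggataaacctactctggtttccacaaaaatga
element in Gimap8 intron (chr6:48657194-48657384): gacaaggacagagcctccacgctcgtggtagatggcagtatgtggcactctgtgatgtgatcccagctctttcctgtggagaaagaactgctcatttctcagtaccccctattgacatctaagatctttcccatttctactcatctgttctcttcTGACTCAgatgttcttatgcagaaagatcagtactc
element beyond Gimap3 (chr6:48784951-48785250): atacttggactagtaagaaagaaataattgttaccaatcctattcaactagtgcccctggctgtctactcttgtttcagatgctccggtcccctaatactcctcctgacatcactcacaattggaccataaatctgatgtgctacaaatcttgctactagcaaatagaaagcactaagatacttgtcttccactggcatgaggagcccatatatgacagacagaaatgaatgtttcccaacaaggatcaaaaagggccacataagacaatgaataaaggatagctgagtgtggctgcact

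The capitals in the element between Gimap7 and Gimap1 are RUNX, RUNX, FOX and KLF matches in that order. In the element in Gimap1, the long run of capitals holds a RUNX match, a KLF match that overlaps its end and another KLF match that overlaps the previous one, after a separate KLF match and before a TCF/LEF match. The Gimap8 intron element holds 1 AP-1 match. The stretch beyond Gimap3 holds none of the 9 motifs. A match is a description of the letters and does not show that a factor bound there.

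Peaks were found along the whole cluster in every library, at the starts of most genes and between them. The Th9 libraries had 28 and 26 peaks in the window, the Th2 libraries 30 and 26, and the Th17 libraries 20 and 20. In regions, the calls were 24 and 24 for Th9, 24 and 26 for Th2 and 19 and 17 for Th17. Both Th17 libraries thus lay below all 4 others in peaks and in regions. In such bulk libraries, fewer cells with an open site and less opening in each cell cannot be told apart.

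**Figure D1:**
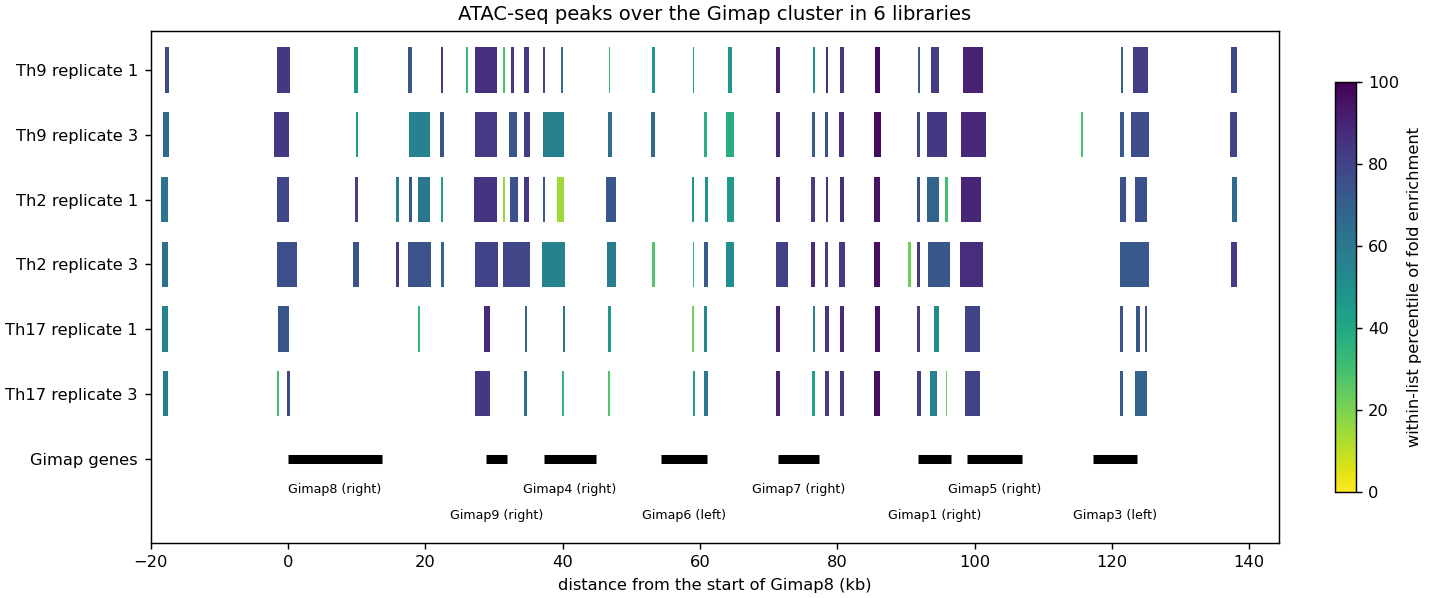
Peaks of the Gimap window in each of the 6 libraries (rows), drawn to scale against the distance in kb from the start of Gimap8, with the 8 genes below and the direction of transcription in brackets. Colour gives the percentile of a peak's fold enrichment within its own list. The Th17 rows hold 20 peaks each, fewer than the 26 to 30 of the other rows.

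The share of the window under peaks followed the same order. Peaks covered 20992 and 32723 bp of the window in Th9, 27969 and 40760 bp in Th2, and 12691 and 14743 bp in Th17. The means were 26857.5 ± 8295 bp, 34364.5 ± 9045 bp and 13717 ± 1451 bp (SD, n = 2 each). Both Th17 values lay below the other 4, and Th17 was lowest among libraries of replicate 1 and among libraries of replicate 3, while Th9 and Th2 overlapped. As shares of the window, the Th17 libraries had 7.76% and 9.01% and the other 4 libraries had 12.8% to 24.9%.

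Whole-genome coverage did not separate Th17 in this way. Peaks covered 2.96% to 4.31% of the genome over the 6 libraries, and the Th17 libraries, at 3.52% and 3.36%, lay between the Th9 libraries, at 3.73% and 2.96%. Relative to the genome, the window was covered 3.44 and 6.76 times as densely in Th9, 3.97 and 6.27 times in Th2, and 2.20 and 2.68 times in Th17. The order of the subset means depended on the filter. With a −log10 q of at least 5 they were 20664 bp in Th9, 30441.5 bp in Th2 and 10997.5 bp in Th17. For folds of at least 4 they were 13032, 12906 and 2115 bp, so Th17 stayed lowest in both settings. When only the 20000 peaks of highest fold enrichment in each list were kept, the means were 11484 bp in Th9, 4938.5 bp in Th2 and 5377.5 bp in Th17, so that Th2 no longer exceeded Th17.

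**Figure D2:**
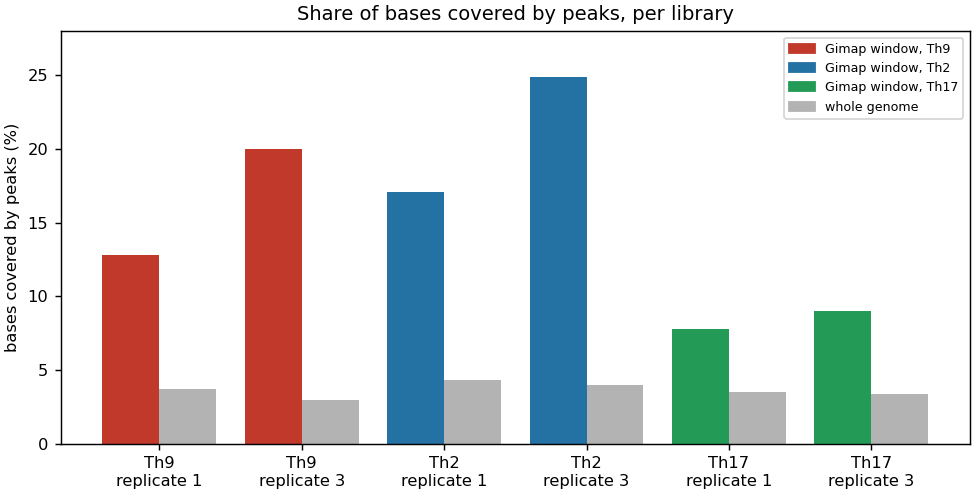
Bases covered by peaks in each library, as a percent of the Gimap window (coloured bars) and of the whole genome (grey bars). The window's share is 7.76% and 9.01% in Th17 against 12.8% to 24.9% in the other libraries, while the grey bars stay between 2.96% and 4.31%.

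Lists differed in length and in their weakest peaks. They held 100317 to 142213 peaks. The lowest fold enrichment called was 2.11 and 1.83 for Th9, 1.81 and 1.73 for Th2 and 1.76 and 1.71 for Th17. Read depth was not recorded in the lists. Promoters of T cell marker genes were called for 7 to 8 of 8 genes per library. The gene without a call was Cd4, in Th9 replicate 1 and Th17 replicate 1. Elsewhere Cd4 had within-list percentiles of 19.2 to 55.9. Markers of other cells were called for 0 to 1 of 4 in B cells, 0 to 1 of 4 in myeloid cells and 0 to 1 of 2 in natural killer cells. They were called for 1 of 2 in CD8 T cells (Cd8b1 in every library) and 1 to 2 of 2 in erythroid cells. The part of such other cells in the results was not tested.

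The promoters of 6 of the 8 genes were called in all 6 libraries. A promoter was taken to reach from 1000 bp before an annotated start to 100 bp past it, and 58.7% of all protein-coding promoters were called in every library. The exceptions were Gimap4, called in Th9 and Th2 only (as were 0.847% of all promoters), and Gimap6, called in 5 libraries (2.52% of all promoters). To compare strength between lists, the fold enrichment of each peak was turned into its percentile within its own list, with 100 as the strongest.

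Gimap4 encodes a GTPase that is abundant in T cells. Its promoter peak had percentiles of 79.4 and 56.9 in Th9 and 72.9 and 55.2 in Th2, and no peak was called there in either Th17 library. The calls differed in kind between replicates. In replicate 1, short peaks of 192 bp (Th9) and 218 bp (Th2) sat over the start, while in replicate 3 the start was the left end of wide peaks of 3088 bp and 3379 bp that ran into the gene. Th17 did have peaks within Gimap4, of 325 and 369 bp, beginning 2678 and 2530 bp downstream of the start. A second, separate peak within the gene was also called in Th9 and Th2 replicate 1, so the inner element was shared by all 6 libraries, and the start was called only outside Th17. Widening the promoter to 2000 bp on either side left the call unchanged. Requiring an overlap of 200 bp, or a −log10 q of at least 5, left Gimap4 called in 1 Th9, 2 Th2 and 0 Th17 libraries.

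Gimap5, which T cells need for survival in the periphery, had the clearest difference in rank among the promoters called everywhere. Its percentiles were 90.7 and 88.6 for Th9, 89.8 and 87.1 for Th2 and 79.8 and 80.4 for Th17. Both Th17 values lay below the other 4. With a fold enrichment of at least 4 required, its promoter was called in both Th9 and both Th2 libraries and in neither Th17 library, but in the top 20000 peaks it was called in 1 Th17 library, and with a −log10 q of at least 5 in both.

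Gimap7, a GTPase that can act on other family members, had the highest-ranked promoter in the Th9 and Th17 libraries, while in both Th2 libraries Gimap5 ranked above it. The percentiles were 91.4 and 88.6 for Th9, 88.7 and 80.9 for Th2 and 89.4 and 90.3 for Th17, and the 3 subsets overlapped. Gimap9 was similar, with 86.1 and 83.5 for Th9, 85.1 and 80.1 for Th2 and 89.0 and 84.3 for Th17. For Gimap1, needed for lymphocyte development and upkeep, the promoter peak ranked at 72.3 and 78.3 for Th9, 76.4 and 83.1 for Th2 and 80.6 and 81.2 for Th17. None of these 3 promoters ranked lower in Th17.

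Gimap8, a large member with repeated GTPase domains, ranked at 84.2 and 83.9 for Th9, 78.9 and 76.1 for Th2 and 73.2 and 77.9 for Th17. Gimap3, a close relative of Gimap5, ranked at 81.8 and 77.0 for Th9, 75.3 and 72.3 for Th2 and 74.1 and 68.0 for Th17. In both genes the Th9 libraries lay above the other 4, and Th2 and Th17 overlapped. Gimap6, which has been linked to autophagy, had the weakest promoter, with no call in Th9 replicate 1, 37.4 in Th9 replicate 3, 49.0 and 71.7 for Th2 and 54.2 and 59.8 for Th17.

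The mean over the 6 promoters called everywhere was 84.4 and 83.3 for Th9, 82.4 and 79.9 for Th2 and 81.0 and 80.3 for Th17, so the averaged promoter rank differed by at most a few percentile points. The protein-coding promoters whose ranks followed this mean most closely, of 12294 compared over the 6 libraries, were Bmp1 (root mean square difference 0.963 percentile points), Rnf123 and Mst1 (1.11 each, from a shared peak), Rad54l (1.32) and Plagl1 (1.34).

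All 6 libraries shared 15 of the 28 regions, against 21.4% of all regions in the genome. Another 4 were called in both Th9 and both Th2 libraries and in no Th17 library, a pattern of 2% of all regions. A lone subset accounted for 1 region, number 5, called in Th2 only (5.88% of all regions were called in both libraries of 1 subset only). A single library accounted for 3 regions, against 37.2% in the genome. The remaining regions were called in other combinations of libraries. With only the top 20000 peaks of each list kept, all 6 libraries shared 1 of 11 window regions, against 39.9% of all regions.

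**Figure D3:**
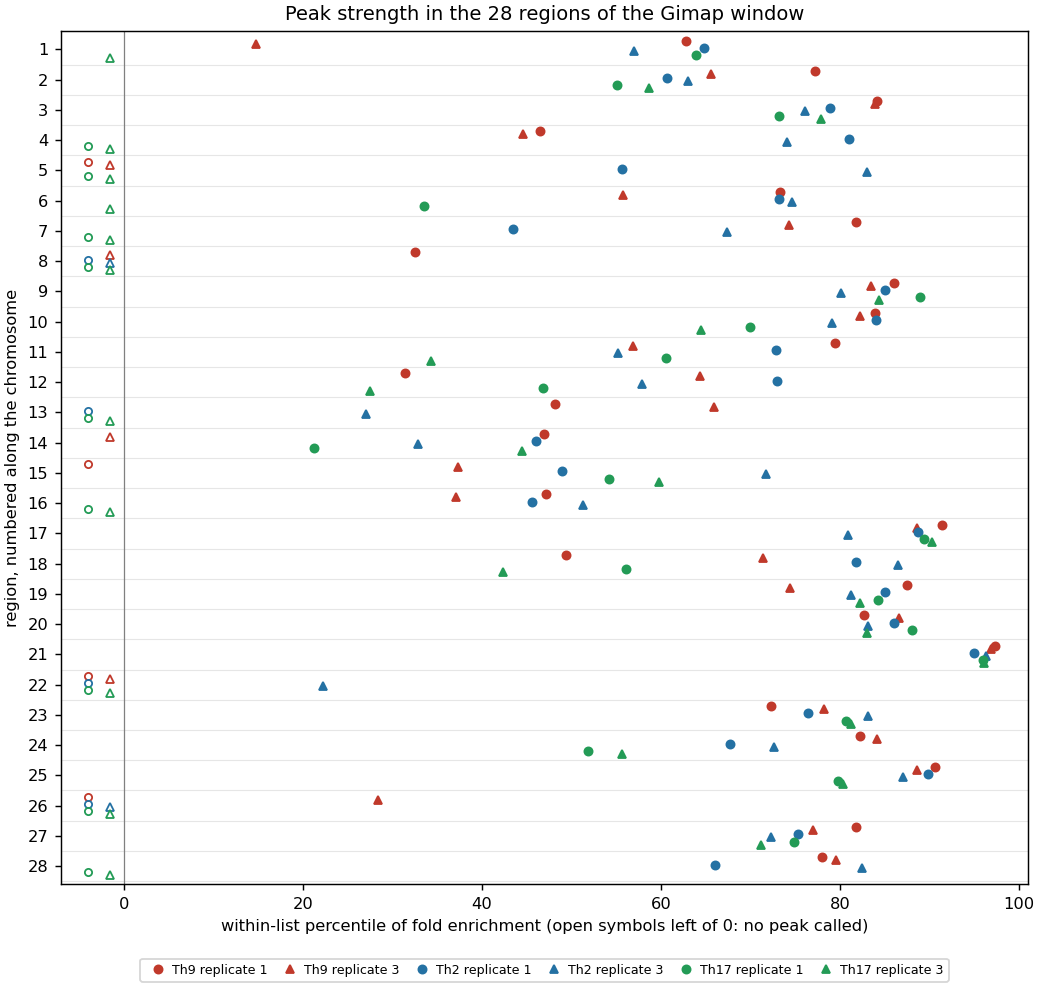
Within-list percentile of fold enrichment for the 28 regions (rows, numbered along the chromosome) in each library. Colour gives the subset, shape the replicate, and open symbols left of 0 mark libraries with no peak. Regions 4, 7, 16 and 28 have open symbols for both Th17 libraries and for no others.

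The 4 regions called in Th9 and Th2 only were spread over the cluster and none was a promoter. Region 4 (chr6:48656667-48657629) lies in the intron before the last exon of Gimap8, with a few bases of the preceding exon at its edge, and ranked at 46.5 and 44.6 in Th9 and 81.0 and 74.1 in Th2. Region 7 (chr6:48669418-48669940), between Gimap8 and Gimap9, ranked at 81.8 and 74.3 in Th9 and 43.4 and 67.4 in Th2. These 2 regions were ranked in opposite orders by the subsets that called them: both Th2 libraries were higher at region 4, and both Th9 libraries were higher at region 7.

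Region 16 (chr6:48710987-48712178), between Gimap6 and Gimap7, was the weakest of the 4, with 47.2 and 37.1 in Th9 and 45.6 and 51.3 in Th2. Region 28 (chr6:48784460-48785536) lies beyond Gimap3 at the right end of the window and ranked at 78.0 and 79.6 in Th9 and 66.0 and 82.5 in Th2. Th9 and Th2 overlapped at both. Region 28 alone of the 4 kept its calls in all 4 libraries, and none in Th17, when a −log10 q of at least 5 was required. All 4 kept the pattern when each list was shortened to 100317 peaks by its −log10 p.

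Region 5 (chr6:48662972-48663462), between Gimap8 and Gimap9, was called by the pair of Th2 libraries (55.7 and 83.0) and by none of the rest. Next to it, region 6 (chr6:48664670-48668030), over the pseudogene Gm44262, was called in all libraries but Th17 replicate 3, with 73.3 and 55.8 in Th9, 73.2 and 74.7 in Th2, and 33.5 in Th17 replicate 1. Its covered length was 475 and 3077 bp in Th9, 2161 and 3361 bp in Th2, and 197 bp in that Th17 library. Regions 4 to 7 together, from the 3′ part of Gimap8 towards Gimap9, therefore held 1 Th17 peak in all.

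Most of the gap in covered bases came from regions that Th17 also called. The 15 regions called in all libraries held 17328 and 25471 covered bases for Th9, 22268 and 31700 for Th2 and 11762 and 13945 for Th17. The 4 regions of the Th9 and Th2 pattern held 2229 and 2883 bases in Th9 and 2253 and 3426 in Th2. Covered length was higher in all 4 Th9 and Th2 libraries than in both Th17 libraries in 7 of the 15 shared regions (3, 9, 10, 11, 24, 25 and 27), against 13.2% of all regions called everywhere. The reverse occurred in 0 of 15, against 7.8%. The 7 regions are the promoters of Gimap8, Gimap9, Gimap4, Gimap5 and Gimap3 with the DNA beside them, the 3′ end of Gimap9, and the body of Gimap1.

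Gimap9 showed the contrast of width and rank most plainly. Its promoter region (region 9, chr6:48674376-48677754) was covered over 3261 and 3271 bp for Th9, 3338 and 3266 bp for Th2 and 855 and 2138 bp for Th17, while its percentile was highest in Th17 replicate 1. Region 10 (chr6:48678522-48682539), from the 3′ end of Gimap9 towards Gimap4, was covered over 1408 and 2161 bp for Th9, 2090 and 4000 bp for Th2 and only 275 and 401 bp for Th17. Here the rank was also lower in Th17, at 69.9 and 64.5, against 84.0 and 82.2 in Th9 and 84.0 and 79.1 in Th2.

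**Figure D4:**
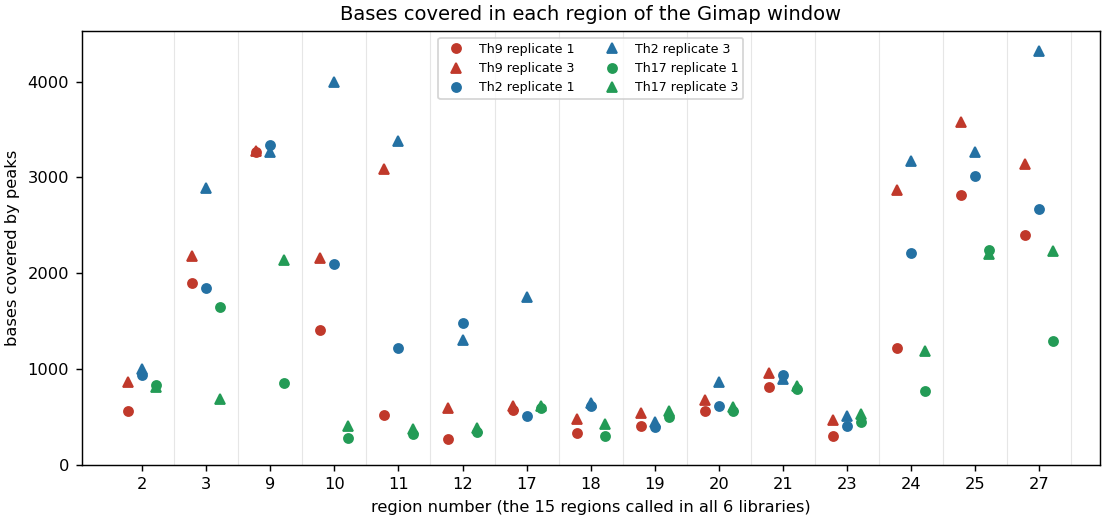
Bases covered by peaks in the 15 regions called in all 6 libraries, by library (colour, subset; shape, replicate). In regions 3, 9, 10, 11, 24, 25 and 27 both Th17 points lie below the other 4.

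The strongest element of the window, region 21 (chr6:48732593-48733550), lies between Gimap7 and Gimap1, in an intron of Gm28053. It ranked at 97.3 and 96.9 for Th9, 94.9 and 96.3 for Th2 and 96.0 and 96.1 for Th17, with fold enrichments of 9.96 and 12.0, 6.73 and 9.39, and 8.33 and 7.87. Its covered length was 813 and 955 bp for Th9, 936 and 890 bp for Th2 and 793 and 818 bp for Th17. Regions 19 and 20, on the Gimap7 side of it, ranked between 74.4 and 88.1 in all libraries with the 3 subsets overlapping. At region 21 both Th9 libraries lay above the other 4, and Th2 and Th17 overlapped.

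Differences in strength were tested with limma on the 50493 regions called in all libraries, after converting each percentile to a normal score (the standard normal deviate with that percentile). With Benjamini-Hochberg adjustment no region of the genome passed 0.05, in the F test over the 3 subsets (0% called) or in any of the 3 pairwise contrasts (0% each), and so 0 of the 15 window regions did. At an unadjusted p under 0.05 the F test held for 2 of the 15 (regions 18 and 24), against 12.3% of all regions. Higher in Th9 than Th17 at that level were 2 of 15 (6.13% of all), and higher in Th2 than Th17 were 3 of 15 (8.24%). None of the 15 was lower in either contrast. Counting both directions together, 11.3% of all regions passed that level for Th9 against Th17 and 11.2% for Th2 against Th17. Lower regions were thus a small share of the genome, and their absence among 15 does not show that the window was one-sided. Between Th9 and Th2, 1 region was higher in Th9 (2.7%) and 1 in Th2 (5.98%).

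Region 24 (chr6:48740348-48743610) covers the body of Gimap1 and ranked at 82.2 and 84.2 for Th9, 67.8 and 72.7 for Th2 and 51.8 and 55.6 for Th17. The 3 subsets did not overlap, with Th9 highest and Th17 lowest. The difference of Th9 from Th17 was 0.87 ± 0.18 in normal score (SE), with a limma adjusted p of 0.180. The Gimap1 promoter a short way upstream ranked no lower in Th17. In this stretch Gimap1, its antisense transcript Gimap1os and Gm28053 overlap, and ATAC-seq does not tell them apart.

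Region 18 (chr6:48723407-48724052), at the second exon of Gimap7, was highest in Th2. It ranked at 49.4 and 71.4 for Th9, 81.8 and 86.4 for Th2 and 56.2 and 42.3 for Th17, so Th2 did not overlap the others. The difference of Th2 from Th17 was 1.02 ± 0.26 (limma adjusted p = 0.215) and that of Th9 from Th2 was -0.73 ± 0.26 (limma adjusted p = 0.530). On the log2 scale of the fold enrichment, with each library centred on its median over the tested regions, 1 window region passed in each contrast with Th17. These were region 24 for Th9 (0.77, limma adjusted p = 0.0411, where 5.01% of all regions passed) and region 18 for Th2 (0.81, limma adjusted p = 0.0401, 5.96% of all). That scale sets folds of different lists against each other.

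Regions 10 and 25 were next. For region 10 the difference of Th9 from Th17 was 0.51 ± 0.18 (limma adjusted p = 0.373), and for region 25, at the Gimap5 promoter, it was 0.42 ± 0.18 (limma adjusted p = 0.452). Percentiles of all 4 Th9 and Th2 libraries lay above both Th17 libraries in 4 of the 15 regions (2, 10, 24 and 25), against 10.8% of all regions, and below them in 0 of 15, against 7.71%. Region 2 lies over an exon of AI854703, outside the Gimap genes. Both Th9 libraries lay above both Th2 libraries in 5 of 15 (17.5% of all), and the reverse held in 1 of 15 (21.9% of all).

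**Figure D5:**
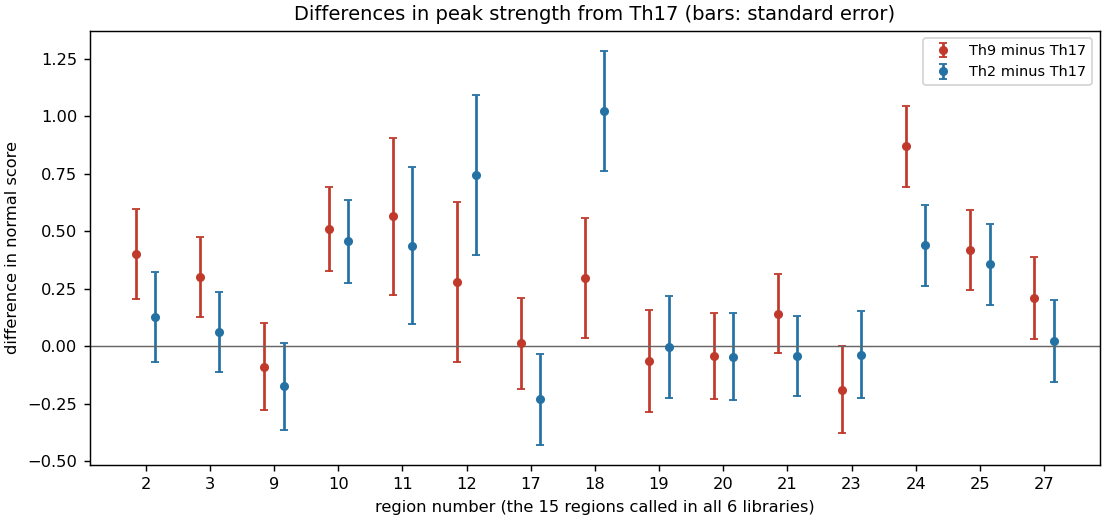
Differences in normal score between Th9 and Th17 and between Th2 and Th17, with standard errors from limma, for the 15 regions called in all 6 libraries. Region 24 has the largest Th9 difference, 0.87, and region 18 the largest Th2 difference, 1.02. None passed 0.05 after adjustment.

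The fit above leaves out regions that Th17 did not call. When regions called in at least 2 libraries were fitted on the percentile, with uncalled libraries set to 0, the F test passed in 5 of 25 window regions (4, 5, 7, 16 and 28), against 8.49% of 148283 regions. Those regions entered the fit through the subsets that called them, and every uncalled library was set to exactly 0. The count therefore restates the pattern of calls given above and is no test of strength.

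The left edge of the window crosses region 1, which lies over an exon of AI854703, and the peak of Th17 replicate 1 there ended before the edge. The nearest separate region before the window lay 4615 bp away and was called in 2 libraries, at 49.8 in Th9 replicate 3 and 47.1 in Th2 replicate 1. Beyond its right end, the nearest lay 11132 bp away and was called in both Th17 libraries (84.7 and 83.8), in Th9 replicate 3 (80.7) and in Th2 replicate 3 (83.1). The next, 12532 bp away, was called in Th9 (55.6 and 79.9) and Th2 (77.1 and 79.99) but not in Th17. The lower number of Th17 calls therefore did not extend to every region nearby.

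Among 18 genes of lymphocyte survival and quiescence, listed for comparison, 18 of 18 promoters were called in all 6 libraries. None passed the adjusted limma F test, and 2 had an unadjusted p under 0.05. Tcf7, Lef1 and S1pr1 were among those with the smallest adjusted p values.

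Tcf7, a transcription factor of naive and memory T cells, ranked at 76.6 and 76.8 for Th9, 64.1 and 58.5 for Th2 and 82.8 and 78.4 for Th17 (limma adjusted p = 0.371). Its partner Lef1 ranked at 91.3 and 89.8 for Th9, 92.1 and 89.9 for Th2 and 79.1 and 81.3 for Th17 (limma adjusted p = 0.409). S1pr1, the receptor for egress from lymph nodes, ranked at 97.2 and 92.7, 91.8 and 89.4, and 88.5 and 84.2 in the same order (limma adjusted p = 0.515). Lef1 and S1pr1 ranked lower in both Th17 libraries than in the other 4, as Gimap5 did, and Tcf7 did not. Most of the 18 genes did not show this order, which 10.8% of all regions called everywhere did. The median difference of Th9 from Th17 in normal score was 0.15 over these 18 genes, 0.28 over the 15 Gimap window regions and 0.0098 over all regions. For Th2 from Th17 it was -0.11, 0.062 and 0.017 in the same order.

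In the 250 bases before the RefSeq start, the RUNX motif occurred in 3 of the 8 members (Gimap1, Gimap4 and Gimap7), against 14.0% of 32841 promoters. KLF occurred in 5 of 8 (52.0% of promoters), STAT in 2 of 8 (Gimap6 and Gimap8, 7.02%) and FOX in 1 of 8 (Gimap3, 3.17%). AP-1, GATA, ETS, TCF/LEF and ROR had 0 of 8, against 6.75%, 9.99%, 12.0%, 13.8% and 14.0% of promoters. Over windows of 300 bases, the AP-1 motif seen in the Gimap8 intron element occurred in 24.8% of 4564 regions called in Th9 and Th2 only and in 13.0% of 49360 regions called in all libraries. For RUNX, present in the strongest element, the shares were 27.2% and 22.1%.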

How the data were processed

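ATAC-seq was performed on 2 libraries each of Th9, Th2 and Th17 cells. The authors trimmed reads with Trim Galore 0.4.3, aligned concordant pairs of up to 2000 bp to mm10 with bowtie2, removed duplicates with Picard and dropped mitochondrial reads and mapping qualities under 10. They called broad peaks in each library separately with MACS2 2.1.0 in paired mode without local background or an input control. The cutoff is not given in the sources used here, and no value below 1.02 occurs among the −log10 q. Broad mode links nearby enriched stretches, so peak width depends on the background and depth of a library. A shift for Tn5 offsets was not stated.

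The deposited lists hold a display score (not used), a fold enrichment (a linear ratio over background), and −log10 values of p and q, as the authors' peak caller gave them. The −log10 p-value was used only to shorten lists, and the −log10 q-value only as a filter, both as deposited. Depth is not recorded, so no counting interval could be given. Fold enrichments were converted to within-list percentiles, 100 × (rank − 0.5) / n. A region counted as called in a library with a peak over it (at least 1 bp), and it took the highest percentile. Genes came from GENCODE M21 (basic set, GRCm38) and sequences and promoter starts from GRCm38 and RefSeq, where all 8 members matched. The 300-base windows were centred on the stretch shared by the calling libraries, and printed elements were shortened to that stretch or to exclude untranslated exon. limma 3.58.1 in R 4.3.3 was fitted to all 50493 regions called in the 6 libraries without covariates, with Benjamini-Hochberg adjustment in each contrast, and was tested on simulated data. Python 3.11.15 with pandas 2.3.3 was used for the rest.

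The text names the 8 members, window regions, neighbouring genes, the survival-list genes among the 4 of smallest adjusted p (1 of them is not reported here) and the 5 genes of most similar promoter rank. The members, gene lists and motifs were chosen with earlier results of these data known. The counts of the Th9 and Th2 pattern and of single contrasts were added as alternatives after the lists had been seen.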

Additional observations from a re-analysis of the deposited data

How the results depend on the processing

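With 2 libraries per subset, no read counts and peak calls that depend on an unstated cutoff, an absent call says only that no peak was listed. The results rest mostly on peaks of moderate strength, since stricter cutoffs removed many.

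Regions called in all libraries numbered 15 of 28, against 21.4% of all regions. With a −log10 q of at least 5 they numbered 9 of 24 (33.5% of all). A fold enrichment of at least 4 left 2 of 13 (36.5%), and the top 20000 peaks left 1 of 11 (39.9%). With 50% of a region covered there were 5 of 28 (10.4%), and 27 of 71 in bins of 1 kb (22.2%). The window thus exceeded the genome share in the main setting, but lay below it with a fold of at least 4 and with the top 20000 peaks. Leaving out each library in turn gave 15 to 17 (21.8% to 23.7% of all). For the Th9 and Th2 pattern the count of 4 became 1, 1, 0, 2 and 12 under the same settings and totals. The shares of all regions there were 2.82%, 5.01%, 3.5%, 1.61% and 2.08%, against 2% in the main setting. The region counted at a fold of at least 4 was number 25, which was not among the original 4. On leaving out each library the count was 4 to 6. For a single subset the count of 1 (5.88% of all regions) became 2 with a −log10 q of at least 5 (9.41%). Those were regions 4 and 6, called in Th2 only, while region 5 was left with 1 Th2 library. It was 0 with the top 20000 peaks (10.3%) and 2 with 50% covered (7.57%). It was 1 to 2 on leaving out each library, and 2 without any of the Th9 or Th2 libraries. Member promoters called in all libraries fell from 6 of 8 (58.7% of all promoters) to 1 at a fold of at least 4 (40.7%). With the top 20000 they fell to 0 (40.3%). The 1 member with the Th9 and Th2 pattern (0.847% of all promoters) became 0 with a −log10 q of at least 5 (0.465%). The count was also 0 with the top 20000 (0.255%) and with an overlap of 200 bp (0.711%). At a fold of at least 4 the count was still 1 (0.774% of all), but the gene was Gimap5 in place of Gimap4.

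The mean bases covered were 13032 (Th9), 12906 (Th2) and 2115 (Th17) for folds of 4 or more. In the same order they were 11484, 4938.5 and 5377.5 for the top 20000, so Th2 fell below Th17. With a −log10 q of at least 5 they were 20664, 30441.5 and 10997.5. Leaving out each library gave 20992 to 32723, 27969 to 40760 and 12691 to 14743.

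In the limma fits, the percentile fit over regions called in at least 2 libraries gave 5 window regions by the F test, 2 for Th9 against Th2, 5 for Th9 against Th17 and 5 for Th2 against Th17, and the log2 fold scale gave 1 for each contrast with Th17. The remaining settings gave 0, although only 2 window regions were tested at a fold of at least 4 and 1 with the top 20000 peaks. Leaving out each library gave 0, with the lone library of a subset assumed to vary like the others. With the replicate block 0 regions were called in the F test and each contrast. At an unadjusted p under 0.05 the F test then held for 4 of the 15 window regions and 16.95% of all. Deviations of same-numbered replicates correlated at 0.157 (Th9 and Th2), 0.00533 (Th9 and Th17) and -0.0211 (Th2 and Th17). The labels give no shared origin, and the samples were not treated as paired. The 5 differences recomputed for regions 10, 18, 24 and 25 kept their direction under each setting that gave a value. On the log2 fold scale the difference of Th2 from Th17 changed sign at region 2 (0.13 to -0.014) and region 27 (0.024 to -0.049), neither past the threshold. The causes of these shifts were not tested.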
